A study of Homo sapiens with 6 samples.

Results

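The replication-dependent histone genes supply the histones that package newly copied DNA, and 65 of them were followed in OE-19 cells after knockdown of IGF2BP3. They were chosen by name and type from the table of counts, as coding genes carrying the cluster symbols of the H1, H2A, H2B, H3 and H4 families, and they make up 65 of 60480 gene identifiers. The family sizes were 6 for H1, 14 for H2A, 17 for H2B, 13 for H3 and 15 for H4. OE-19 is an established line of adenocarcinoma of the esophagogastric junction (AEG), and IGF2BP3 is an RNA-binding protein that reads m6A on mRNA. RNA-seq was done on 3 libraries of cells carrying a control short hairpin (control) and 3 libraries of cells carrying a hairpin against *IGF2BP3* (IGF2BP3 KD), all grown in RPMI1640 medium with serum. The control libraries are titled shControl and also carry the label Puro. The labels do not say whether the libraries of a group came from separate cultures or which hairpin each IGF2BP3 KD library carries, so the p-values measure the spread between these libraries, which may be technical.

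Core histones (H2A, H2B, H3 and H4) form the nucleosome, and the linker histone H1 binds the DNA between nucleosomes. Their replication-dependent genes lie in clusters, are transcribed mainly in S phase, and mostly lack introns. Their canonical mRNAs are the metazoan mRNAs that do not end in a poly(A) tail: the stem-loop-binding protein SLBP holds a short hairpin just after the stop codon, the U7 snRNP and the endonuclease CPSF3 cut behind it, and the mRNA decays when DNA synthesis stops. A part of these genes can also give polyadenylated transcripts that run past the hairpin. These libraries were made from RNA purified on its poly(A) tail, so a level here is that of histone RNA that passed this selection and not of all histone mRNA. In bulk RNA, a change in the share of cells in S phase and a change in the RNA per cell cannot be told apart.

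The 3′ stem-loop is shown first because it is the shared element of the family and the point where the canonical transcript ends. A 16-base stem-loop was found in the hg38 genome 22 to 62 bases after the stop codon of all 65 genes, with a median of 35 bases, in 10 different sequences. In the lines that follow, capitals mark the 6 bases of each side of the stem and lower case marks the 4 bases of the loop.
Most common form, in 36 genes of the H1, H2A, H2B and H3 families: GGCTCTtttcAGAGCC
Second form outside H4, in 9 genes: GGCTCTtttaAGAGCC
Most common H4 form, in 10 genes: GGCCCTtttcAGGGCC
Second H4 form, in 4 genes: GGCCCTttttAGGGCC
The stem of both H4 forms was found in 15 of 15 H4 genes and in 0 of the other genes. Among the genes that passed the test below, *H2AC6* (chr6:26124669-26124684), *H2BC21*, *H3C10*, *H2AC13*, *H2BC8*, *H3C14* and *H3C15* have the most common form, while *H2BC7* and *H2BC12* have the second form.

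Promoters from RefSeq (GRCh38.p14) were matched for 59 of the 65 genes, each from 250 bases before to 50 bases after the start, and for 4 genes with several starts the one nearest to the stem-loop was taken. The letters TATAAA, the box that TBP binds, occurred on either strand in 66.1% of the 59 histone promoters and in 11.5% of all 35116 promoters. CCAAT, the core of the NF-Y site, occurred in 84.7% against 34.6%, and ATTTGCAT, the octamer that POU2F1 binds, in 42.4% against 1.8%. The octamer was found in 84.6% of the H2A and 82.4% of the H2B promoters, while CCAAT was found in all matched H1, H2A, H2B and H3 promoters and in 25.0% of the H4 promoters. The promoters of 4 genes are printed for the genes described most closely below, with these letters, on either strand, in capitals. A match of letters is a description and not a shown binding site.
H2AC6, chr6:26123922-26124221, plus strand: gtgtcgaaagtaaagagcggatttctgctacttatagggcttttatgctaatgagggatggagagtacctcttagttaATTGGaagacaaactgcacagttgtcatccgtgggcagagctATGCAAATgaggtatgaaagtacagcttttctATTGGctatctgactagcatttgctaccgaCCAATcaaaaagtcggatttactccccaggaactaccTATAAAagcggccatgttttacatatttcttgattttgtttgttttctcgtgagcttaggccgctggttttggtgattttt
H2BC8, chr6:26216639-26216938, minus strand: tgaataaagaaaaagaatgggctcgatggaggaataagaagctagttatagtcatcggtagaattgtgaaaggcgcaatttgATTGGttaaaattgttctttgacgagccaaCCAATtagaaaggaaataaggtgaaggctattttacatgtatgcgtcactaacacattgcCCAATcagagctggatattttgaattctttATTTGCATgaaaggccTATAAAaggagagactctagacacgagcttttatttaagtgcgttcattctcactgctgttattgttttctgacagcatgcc
H3C14, chr1:149841159-149841458, minus strand: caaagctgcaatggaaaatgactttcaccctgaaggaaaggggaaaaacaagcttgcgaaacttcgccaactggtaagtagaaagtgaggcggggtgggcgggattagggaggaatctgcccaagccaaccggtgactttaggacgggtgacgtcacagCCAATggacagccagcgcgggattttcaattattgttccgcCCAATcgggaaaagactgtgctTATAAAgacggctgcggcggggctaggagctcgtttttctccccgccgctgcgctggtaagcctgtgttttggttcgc
H4C14, chr1:149832407-149832706, plus strand: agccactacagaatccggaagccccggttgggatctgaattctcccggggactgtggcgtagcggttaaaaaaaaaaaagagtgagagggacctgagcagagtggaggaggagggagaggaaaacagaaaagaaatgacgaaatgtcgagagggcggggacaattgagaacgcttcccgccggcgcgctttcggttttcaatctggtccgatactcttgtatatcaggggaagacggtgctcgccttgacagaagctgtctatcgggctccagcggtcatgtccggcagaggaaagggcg
The *H2AC6* and *H2BC8* promoters hold the TATA box, CCAAT and the octamer, the *H3C14* promoter holds the TATA box and CCAAT, and the *H4C14* promoter holds none of these letters.

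*IGF2BP3* itself was at 108, 106 and 112 CPM (counts scaled by TMM to one library size) in the control libraries and at 14.4, 12.8 and 12.6 CPM in the IGF2BP3 KD libraries. The groups did not overlap, and the log2 fold change was -3.03 (SE 0.06, adjusted p = 3.1e-10 by edgeR's quasi-likelihood test). Libraries held 53424071 to 69989087 counts. Of 8 epithelial markers, 7 were detected, among them *EPCAM* at 473 and *KRT19* at 982 CPM in control cells, and CDX1 was at 0. Of 10 markers of blood, stromal and endothelial cells, *CD68* (35.8 and 51.9 CPM) and *COL1A1* (21.7 and 30.8 CPM) were present and higher in IGF2BP3 KD, whereas *COL1A2* and *CD3E* were at 0 and *PTPRC* and *PECAM1* were under 0.1 CPM in both group means. The summed level of these 10 markers was 55.0 to 61.8 CPM in control and 83.4 to 84.2 CPM in IGF2BP3 KD libraries.

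The summed level of the histone genes was higher in every IGF2BP3 KD library than in every control library. With 1 gene of each identical pair (*H3C14* and *H3C15*, *H4C14* and *H4C15*, described below), the 63 genes summed to 413, 413 and 415 CPM in the control libraries and to 506, 508 and 500 CPM in the IGF2BP3 KD libraries. The groups did not overlap, and the mean of IGF2BP3 KD was 1.22 times that of control, with an SD of 1.02 CPM in control and 3.95 CPM in IGF2BP3 KD. The 5 genes with the most counts, *H2AC6*, *H2BC12*, *H2BC21*, *H2BC5* and *H1-2*, made up 75.3% of the summed level, and the ratio was 1.22 for these 5 genes and 1.22 for the other 58. The 35 separate genes that were tested and not called summed to 124 ± 2.38 CPM in control and 144 ± 5.44 CPM in IGF2BP3 KD (SD, n = 3), also without overlap.

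**Figure D1:**
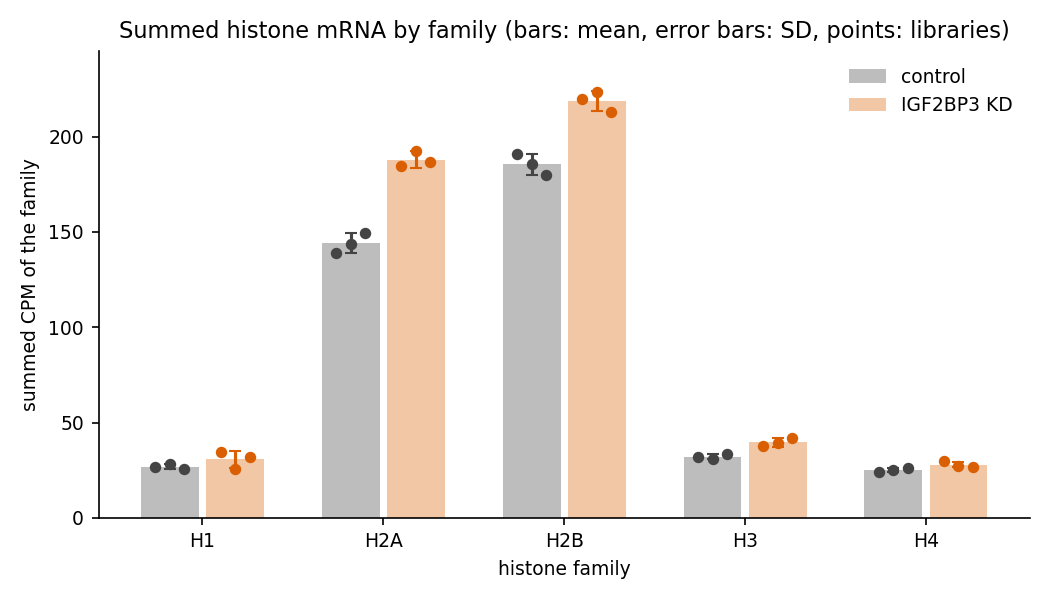
Summed level of each histone family in CPM, with 1 gene of each identical pair, in the 3 control and 3 IGF2BP3 KD libraries (bars, means; error bars, SD; points, libraries). H2A, H2B, H3 and H4 do not overlap between groups, with IGF2BP3 KD higher, and H1 overlaps.

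By family, the summed H2A level went from 144 ± 5.28 to 188 ± 4.22 CPM (SD, n = 3), a ratio of 1.30, with no test on the sum. H2B went from 185 ± 5.45 to 219 ± 5.28 CPM, a ratio of 1.18. H3 went from 32.1 ± 1.30 to 39.6 ± 2.20 CPM, a ratio of 1.23. H4 went from 25.0 ± 0.98 to 27.9 ± 1.46 CPM, a ratio of 1.12, the smallest of the 5 families. H1 went from 26.9 ± 1.32 to 30.7 ± 4.61 CPM, and its groups overlapped. The 55 genes on chromosome 6 (chr6:25723397-27893891) had a ratio of 1.23 and the 7 separate genes of the chromosome 1 cluster (chr1:149782689-149887965) a ratio of 1.17. *H4-16* on chromosome 12 had 1.07 ± 0.15 CPM in control and 0.90 ± 0.21 CPM in IGF2BP3 KD.

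Gene by gene, 45 of the 65 genes had enough counts to be tested, and 7 of the 45 (15.6%) passed the threshold as higher in IGF2BP3 KD. Among all 19778 tested genes 9.87% were called higher. As lower, 2 of the 45 (4.4%) passed, against 10.6% of all tested genes, and these 2 are one measurement. The log2 fold change was above 0 for 33 genes and below 0 for 12, with a median of 0.18, while the median over all tested genes was 0.01. With 1 gene of each identical pair, 7 of 43 (16.3%) were called higher and 1 (2.3%) lower. Of these 43, 32 were above 0 and 11 below, with a median of 0.21. Of the 28 genes that averaged 1 CPM or more, 26 were above 0 and 2 below, with a median of 0.28, against 0.00 over the 14289 tested genes at that level. The groups did not overlap in 12 genes with IGF2BP3 KD higher, where 18.0% of all tested genes did so, and in 2 genes with IGF2BP3 KD lower, where 17.8% did so.

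**Figure D2:**
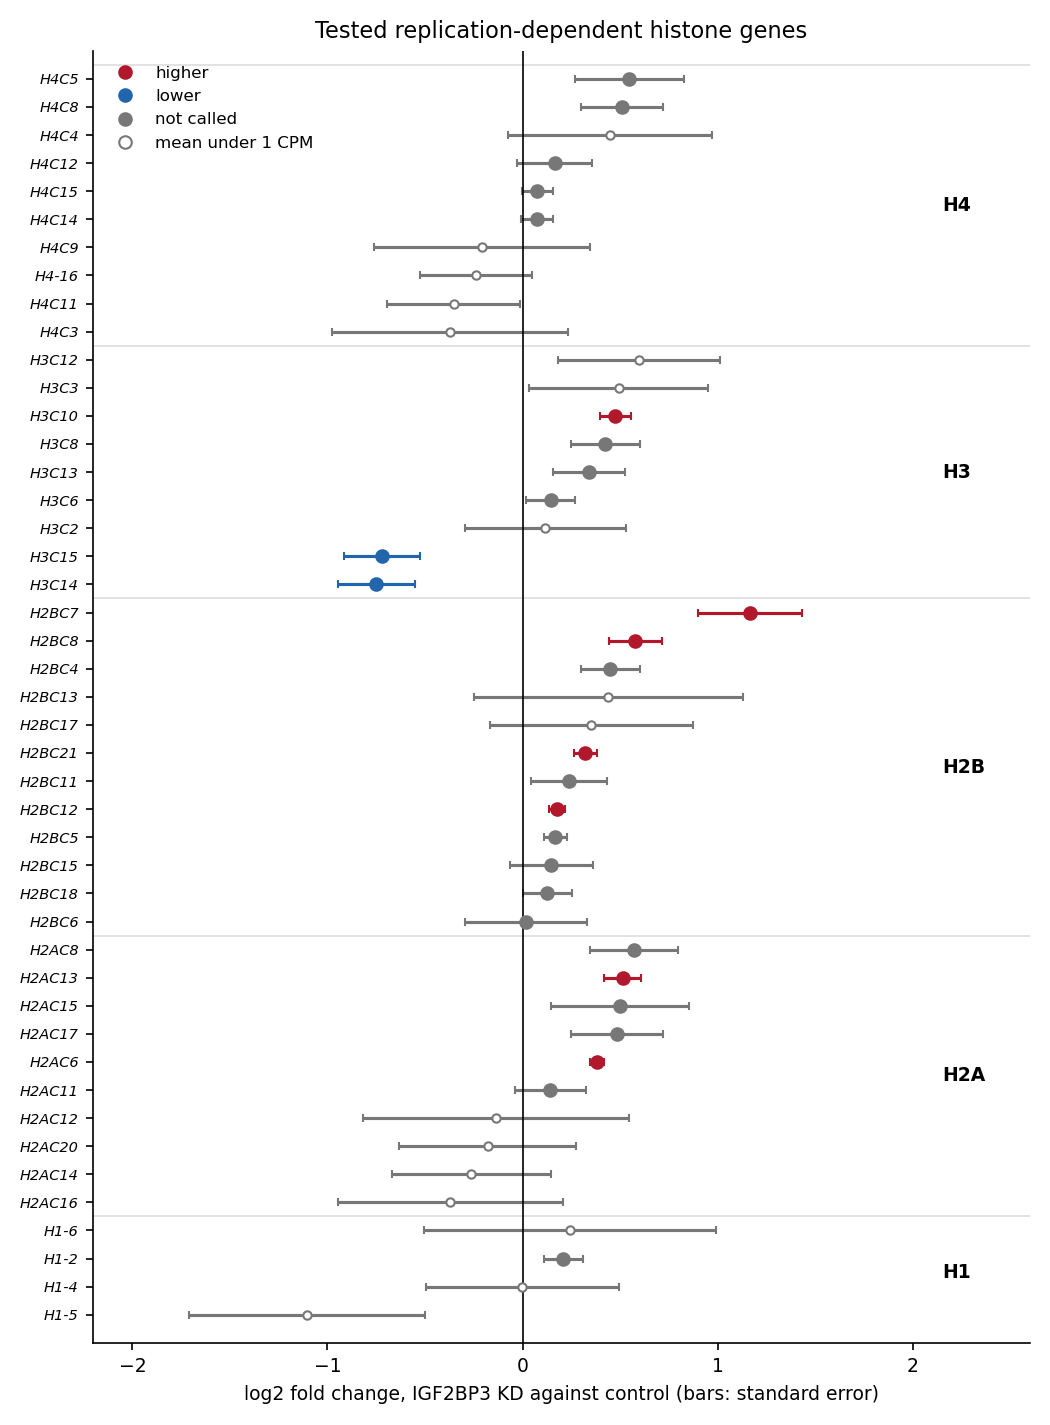
Log2 fold change of IGF2BP3 KD against control for the 45 tested histone genes, ordered within each family (bars, standard error). Red marks the 7 genes called higher, blue the 2 called lower, grey the 36 not called and open circles a mean under 1 CPM.

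In the H2A family, which pairs with H2B at the outer face of the nucleosome, *H2AC6* (ENSG00000180573, chr6:26124145-26139116) was at 123, 127 and 133 CPM in control and at 163, 171 and 164 CPM in IGF2BP3 KD libraries. Every IGF2BP3 KD library lay above every control library. The log2 fold change was 0.38 (SE 0.04, adjusted p = 3.7e-05 by edgeR), a fold of 1.30. *H2AC13* (ENSG00000196747, chr6:27808173-27808667) was at 8.22, 8.12 and 8.35 CPM in control and at 11.4, 11.2 and 12.7 CPM in IGF2BP3 KD, again without overlap. Its log2 fold change was 0.51 (SE 0.10, adjusted p = 0.0027 by edgeR). *H2AC13* shares 52.9% of its 150-base windows, the length of a read, with *H2AC14*, whose largest count was 40. *H2AC8* was at 1.53, 1.62 and 1.74 CPM in control and at 1.83, 2.96 and 2.47 CPM in IGF2BP3 KD, and did not pass (adjusted p = 0.106). *H2AC17*, *H2AC15* and *H2AC11* had log2 fold changes of 0.49, 0.50 and 0.14 and did not pass either, and *H2AC17* overlaps *H3C12* on the same strand by 346 exon bases.

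In the H2B family, all 12 tested genes had a log2 fold change above 0. Of these, 4 (33.3%) were called higher, against 9.87% of all tested genes. *H2BC12* (ENSG00000197903, chr6:27146361-27146855) was at 86.3, 86.1 and 81.5 CPM in control and at 97.1, 97.7 and 92.1 CPM in IGF2BP3 KD. The rise was small, with a log2 fold change of 0.18 (SE 0.04, adjusted p = 0.0124 by edgeR), but the groups did not overlap. With GC offsets its adjusted p was 0.0502, and it was also lost without control replicate 3 (0.068), without IGF2BP3 KD replicate 1 (0.0565) and without IGF2BP3 KD replicate 2 (0.0587).

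*H2BC21* (ENSG00000184678, chr1:149884459-149886682) was at 46.7, 48.1 and 42.6 CPM in control and at 56.8, 59.8 and 55.0 CPM in IGF2BP3 KD. It did not overlap between groups, and its log2 fold change was 0.32 (SE 0.06, adjusted p = 0.0025 by edgeR). *H2BC8* (ENSG00000273802, chr6:26216200-26216688) went from 4.06, 3.72 and 4.25 CPM to 5.56, 6.36 and 6.03 CPM. The log2 fold change was 0.58 (SE 0.14, adjusted p = 0.0115), and leaving out the second library of either group gave an adjusted p of 0.051. *H2BC7* (ENSG00000277224, chr6:26199516-26199988) had the largest fold among the called genes at a low level, from 0.67, 0.56 and 0.68 CPM to 1.48, 1.58 and 1.24 CPM. Its log2 fold change was 1.17 (SE 0.27, adjusted p = 0.00953), a fold of 2.24.

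*H2BC4* was at 8.86, 5.97 and 6.56 CPM in control and at 10.6, 9.89 and 8.77 CPM in IGF2BP3 KD. Control replicate 1 lay within the IGF2BP3 KD range, and the gene did not pass (log2 fold change 0.45, SE 0.15, adjusted p = 0.0598). Without control replicate 1 the adjusted p was 0.00763, and with DESeq2 it was 0.028. Its exons overlap *HFE* by 430 bases and ENSG00000291336 by 460 bases on the other strand. Those of *H2BC6* (730 bases), *H4C8* (287) and *H2BC18* (177) also overlap a gene on the other strand, so the reads of these 4 genes are uncertain if the counting ignored strand. *H2BC5* went from 27.8 ± 1.30 to 31.2 ± 0.57 CPM without overlap and did not pass (log2 fold change 0.17, SE 0.06, adjusted p = 0.072), though it did with GC offsets (0.0472) and among protein-coding genes only (0.0482). *H2BC11*, *H2BC15*, *H2BC18* and *H2BC6* had log2 fold changes of 0.24, 0.15, 0.13 and 0.02, all with overlapping groups.

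**Figure D3:**
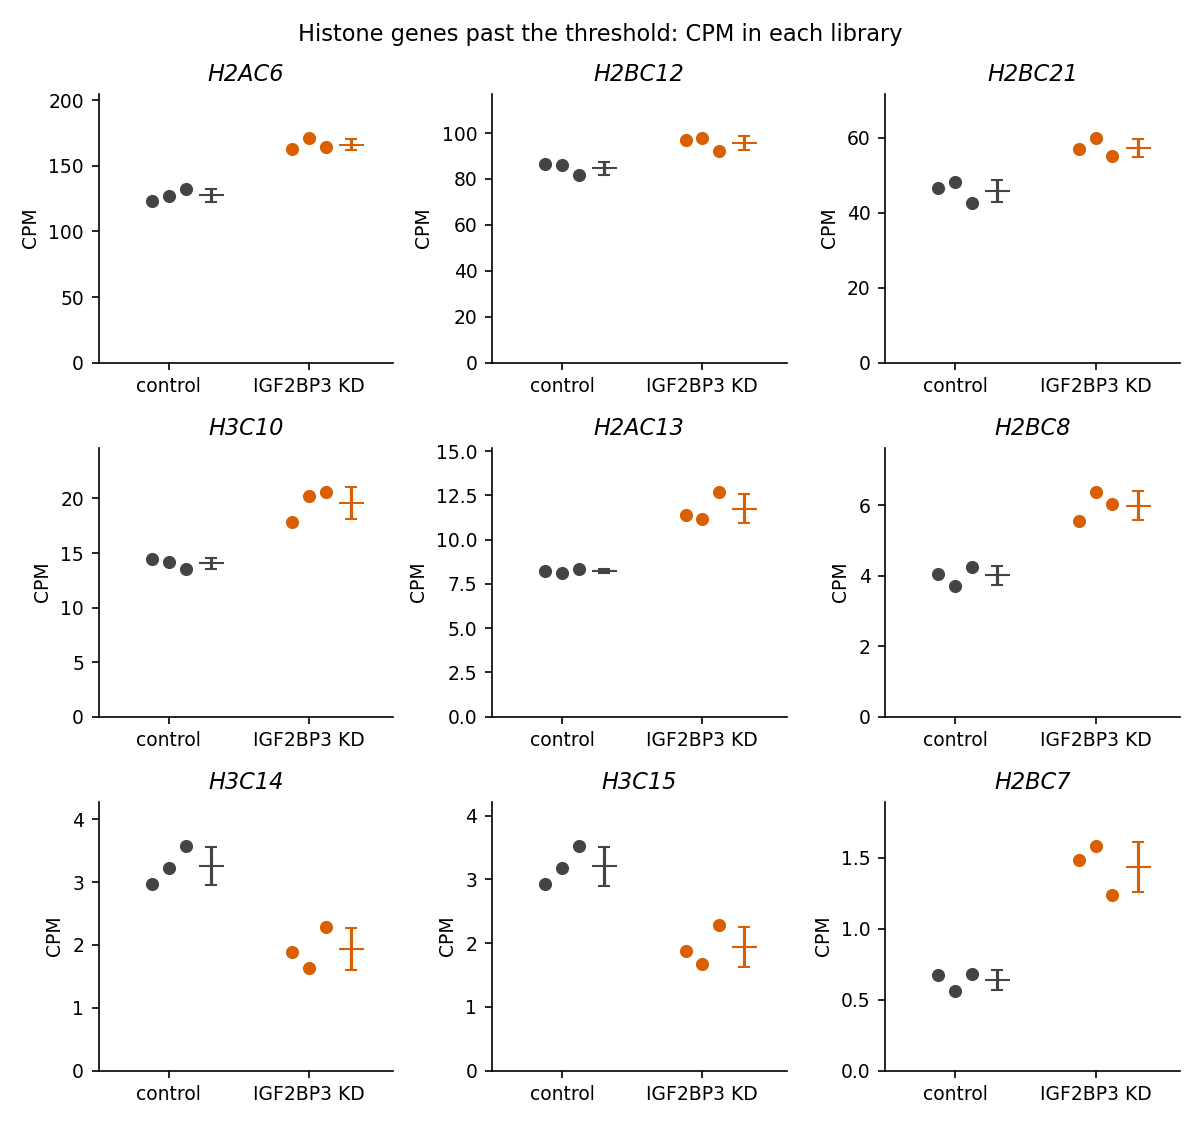
CPM of the 9 histone genes past the threshold in each of the 3 control and 3 IGF2BP3 KD libraries (points, libraries; bars, mean and SD; each axis starts at 0). The groups do not overlap in any of the 9 panels, and *H3C14* and *H3C15* are the only panels with IGF2BP3 KD below control.

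In the H3 family the called genes went in both directions. *H3C10* (ENSG00000278828, chr6:27810051-27811300), which starts 1383 bases after the end of *H2AC13* on the same strand, was at 14.5, 14.2 and 13.5 CPM in control and at 17.9, 20.2 and 20.6 CPM in IGF2BP3 KD. The groups did not overlap, and the log2 fold change was 0.48 (SE 0.08, adjusted p = 0.00133 by edgeR). *H3C8*, *H3C13* and *H3C6* had log2 fold changes of 0.43 (SE 0.17), 0.34 (SE 0.19) and 0.14 (SE 0.13) and did not pass.

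*H3C14* (ENSG00000203811, chr1:149840687-149841208) and *H3C15* (ENSG00000203852, chr1:149852608-149853125) were the only histone genes called lower. *H3C14* was at 2.96, 3.23 and 3.57 CPM in control and at 1.89, 1.63 and 2.28 CPM in IGF2BP3 KD. The groups did not overlap, the log2 fold change was -0.75 (SE 0.20) and the adjusted p was 0.0199 by edgeR. *H3C15* gave -0.72 (SE 0.20, adjusted p = 0.0232). *H3C15* shares all of its 150-base windows with *H3C14* or *H3C13*, and *H3C14* shares 98.9%. Their counts differed by 0 to 4 in each library, where independent counts of this size would differ by about 14.2 to 21.1 (1 SD of counting error). The pair was therefore taken as 1 measurement, and how the counting treated reads that fit several places is not given in the sources used here. The adjusted p of *H3C14* was over 0.05 without control replicate 2 (0.0532), control replicate 3 (0.0776), IGF2BP3 KD replicate 1 (0.0572) or IGF2BP3 KD replicate 2 (0.0748).

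In the H4 family, none of the 10 tested genes passed the threshold by edgeR or by DESeq2. Among all genes tested by edgeR, 9.87% were called higher and 10.6% lower. Whether 0 of 9 separate H4 genes departs from these shares was not tested. Only 1 gene, *H4C8*, had an unadjusted p under 0.05 by either tool. *H4C14*, whose copy is *H4C15*, was at 13.1, 14.99 and 14.5 CPM in control and at 14.92, 14.90 and 15.01 CPM in IGF2BP3 KD. The groups overlapped, and the log2 fold change was 0.07 (SE 0.08, adjusted p = 0.597). These 2 genes share all of their windows and differed by 1 to 10 counts in a library, where counting error would give 40.1 to 45.6, so they too are 1 measurement. *H4C8* was at 3.81, 3.14 and 5.04 CPM in control and at 7.15, 4.62 and 5.28 CPM in IGF2BP3 KD (log2 fold change 0.51, SE 0.21, adjusted p = 0.123). *H4C5* and *H4C12* had log2 fold changes of 0.55 (SE 0.28) and 0.16 (SE 0.19), and *H4C12* shares 89.5% of its windows with *H4C11*.

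The linker histone *H1-2* was at 25.6, 27.4 and 24.0 CPM in control and at 33.4, 24.9 and 30.9 CPM in IGF2BP3 KD. IGF2BP3 KD replicate 2 lay inside the control range and the gene did not pass (log2 fold change 0.21, SE 0.10, adjusted p = 0.182). Without that library the log2 fold change was 0.32 (SE 0.08, adjusted p = 0.0224). *H1-5* had the largest negative value of the tested genes, -1.10 (SE 0.61, adjusted p = 0.254), on 4 to 41 counts per library.

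The other 17 tested genes had a mean under 1 CPM and none passed. Their counts ran from 4 to 95 per library, and 7 had a log2 fold change above 0 and 10 below. The 20 genes that were not tested were 2 of H1, 4 of H2A, 5 of H2B, 4 of H3 and 5 of H4. Their largest count in any library was 34, in *H2AC7*, 12 of the 20 never reached 10 counts, and *H2AC1* and *H2BC1* were at 0 in all 6 libraries. The low-count filter removed these genes before the test, so no statement on a difference between the groups is made for them.

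Levels were then compared between genes per length of GENCODE v44 exon. The counts were made on an annotation release that is not given, so the exons counted may differ from those of GENCODE v44. In control cells *H2BC12* was the highest at 171 CPM per kb, followed by *H2AC6* at 76.4, *H1-2* at 35.1, *H2BC5* at 32.3, *H2BC21* at 20.6, *H2AC13* at 16.6 and *H3C10* at 11.2 CPM per kb. In GENCODE v44, 15 of the 65 genes have exons that run 380 to 3704 bases past the stem-loop, and the other 50 end within 18 bases of it. The median control level was 3.53 CPM per kb for the 15 genes and 0.61 CPM per kb for the 50. *H2BC12*, *H1-2* and *H2AC13* stood high without such an annotated extension, ending 5, 4 and 5 bases after the stem-loop. The summed level went from 262 ± 3.15 to 328 ± 5.96 CPM for the genes annotated past the stem-loop and from 151 ± 2.36 to 176 ± 4.42 CPM for the genes that end at it, with ratios of 1.25 and 1.17. The difference between these ratios was not tested.

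**Figure D4:**
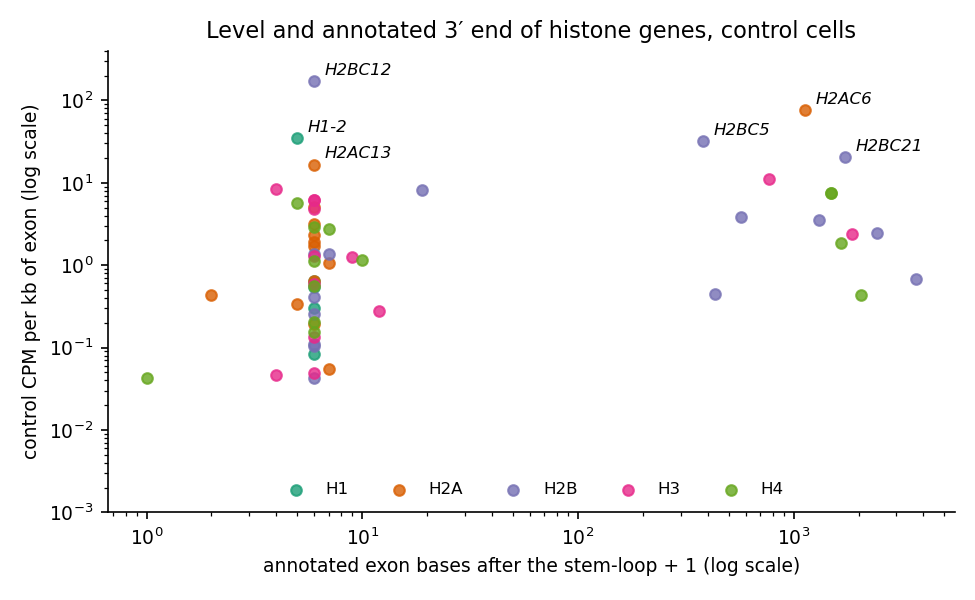
Control level in CPM per kb of exon (log scale) against the exon bases annotated after the stem-loop plus 1 (log scale) for the histone genes with a count in control libraries, coloured by family. *H2BC12* at 171 CPM per kb is the highest although its GENCODE v44 annotation ends 5 bases after the stem-loop. The exons behind the deposited counts may differ.

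RNAs that carry no poly(A) tail were listed by symbol, and their levels after the selection were summed. The 24 listed RNAs summed to 14.5, 19.5 and 19.3 CPM in control and to 37.9, 43.1 and 33.9 CPM in IGF2BP3 KD, without overlap. *RPPH1* carried this difference, with 14.2 ± 2.68 CPM in control and 34.6 ± 4.90 CPM in IGF2BP3 KD (log2 fold change 1.29, SE 0.14, adjusted p = 5.7e-05 by edgeR). The identifier counted (ENSG00000259001) bears the symbol of the RNase P RNA but is typed as a long non-coding RNA with 638 exon bases. Whether its counts came from the RNase P RNA or from another transcript was not tested. The other 23 RNAs summed to 3.56 ± 0.22 CPM in control and 3.71 ± 0.72 CPM in IGF2BP3 KD, with overlapping groups, and *RNU7-1*, the RNA of the U7 snRNP, was at or near 0. With 63 exon bases *RNU7-1* is shorter than a read of 150 bases, as are several others of the list. Short length and the selection cannot be told apart in these sums. The part of the selection in the histone values was not tested.

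Neighbouring histone genes were read as pairs, because many H2A and H2B genes face away from each other across one short promoter. There were 12 such pairs with starts at most 500 bases apart, and 11 of them joined an H2A and an H2B gene. Both genes were tested in 9 pairs, 7 of which had the same sign, and no pair had both genes called. *H2BC17* was paired with both *H2AC17* and *H3C12*, which overlap by 346 exon bases on the same strand, so these pairs are not separate. Of all 45 tested histone genes 33 were above 0, and whether pairs shared a sign more often than this gives was not tested. *H2BC8* and *H2AC8*, 232 bases apart across the *H2BC8* promoter printed above, had log2 fold changes of 0.58 (SE 0.14) and 0.57 (SE 0.23). *H2BC4* and *H2AC6*, 218 bases apart across the printed *H2AC6* promoter, had 0.45 (SE 0.15) and 0.38 (SE 0.04), while their control levels were 2.47 and 76.4 CPM per kb of exon. *H2BC21* at 0.32 (SE 0.06) and *H2AC20* at -0.18 (SE 0.46) differed in sign, and *H2AC20* had only 23 to 76 counts per library. *H2BC12* at 0.18 (SE 0.04) and *H2AC12* at -0.14 (SE 0.68) differed in sign too, and *H2AC12* had 5 to 21 counts per library.

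The genes that make, process and decay histone mRNA included *SLBP* and *NPAT*, which were called in opposite directions. Of 28 supply factors, 12 (42.9%) passed the test as lower, where 10.6% of all tested genes did. As higher, 3 (10.7%) passed, near the 9.87% of all tested genes. The median over the tested factors was -0.10 on the log2 scale. The list was chosen with earlier results of these data known, so these shares are a description and not a test. All listed factors averaged over 1 CPM, a level that 14289 of the 19778 tested genes reached. *SLBP*, whose protein holds the stem-loop, was at 80.6, 82.6 and 84.8 CPM in control and at 60.6, 59.5 and 54.6 CPM in IGF2BP3 KD. The groups did not overlap, and the log2 fold change was -0.50 (SE 0.05, adjusted p = 3.9e-05 by edgeR). *CCNE2* (-0.93, SE 0.06), *CCNE1* (-0.63, SE 0.06) and *CDK2* (-0.20, SE 0.05), the cyclins and kinase that switch on histone transcription, and *E2F1* (-0.58, SE 0.06), the S-phase transcription factor, were lower. *ERI1*, the exonuclease that trims the 3′ end (-0.44, SE 0.05), and the cleavage factor gene *CPSF2* (-0.39, SE 0.04) were lower as well. *NPAT*, the coactivator of the histone locus body, was higher, from 38.3, 38.4 and 36.9 CPM to 45.5, 48.9 and 49.9 CPM (log2 fold change 0.35, SE 0.05, adjusted p = 0.000986). *LSM1*, a factor of mRNA decay (0.43, SE 0.08), and *YY1* (0.16, SE 0.03) were the other higher genes. *CASP8AP2* (-0.24), *CPSF3* (-0.20), *UPF1* (-0.19), *SRRT* (-0.17) and *SYMPK* (-0.13) made up the rest of the lower genes. *CCNE2*, *LSM1*, *CDK2*, *YY1* and *SYMPK* overlap an annotated gene on the other strand, and the strand setting of the counting is not given in the sources used here.

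**Figure D5:**
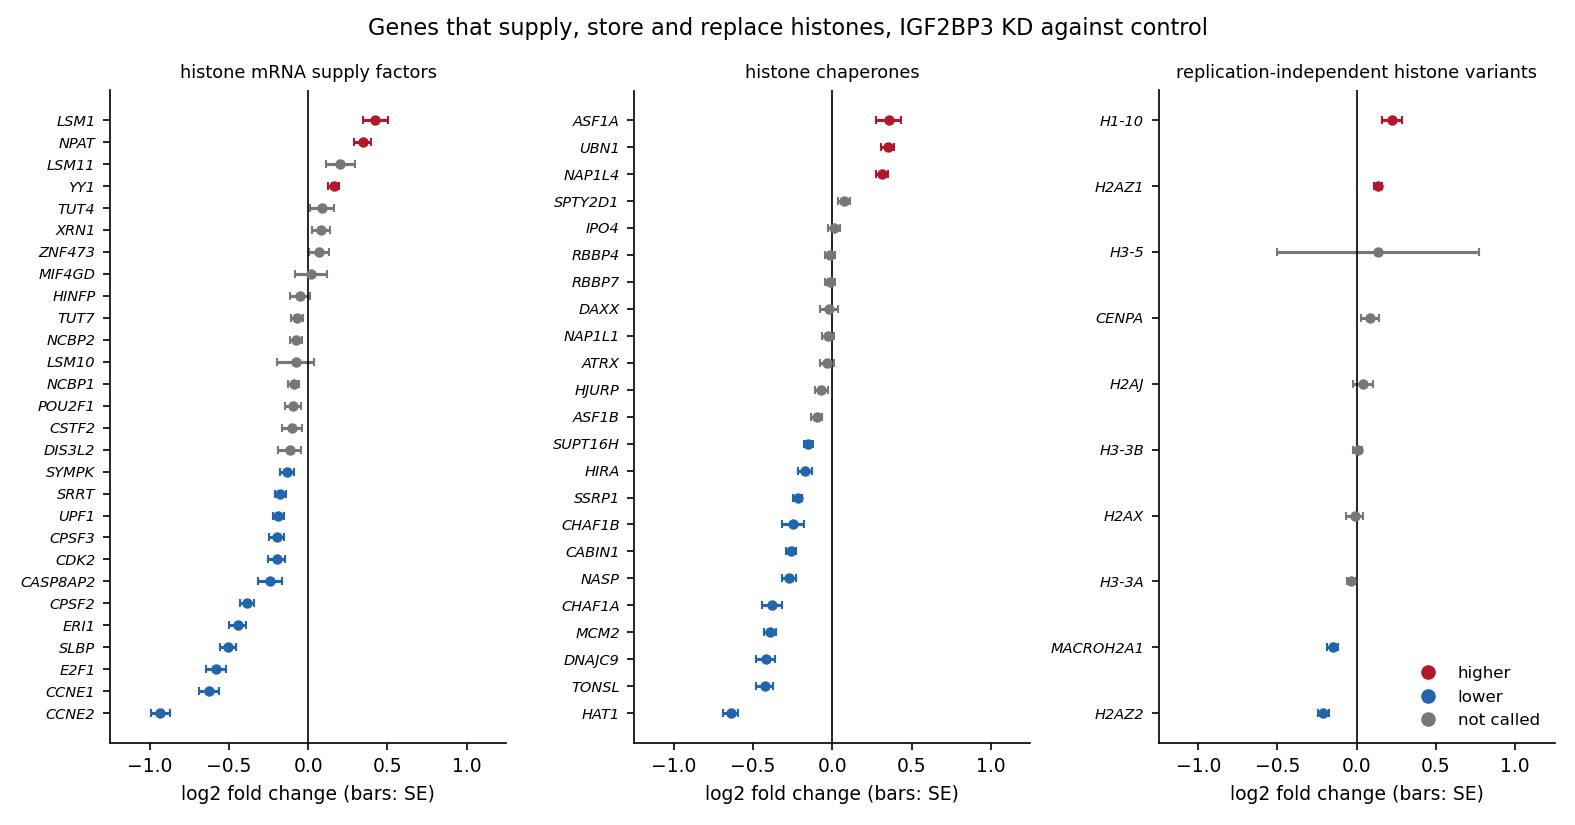
Log2 fold change of IGF2BP3 KD against control for the tested supply factors, histone chaperones and replication-independent variants (bars, standard error). Blue marks genes called lower (12, 11 and 2), red those called higher (3, 3 and 2) and grey those not called.

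Among 23 histone chaperones and related factors, which carry histones to DNA, 11 (47.8%) were lower, against 10.6% of all tested genes. A further 3 were higher, against 9.87% of all tested genes, and the median was -0.10. The same limits hold for this list, so its shares are a description and not a test. *HAT1*, which acetylates new H4, was at 97.5, 92.1 and 99.5 CPM in control and at 62.2, 59.3 and 64.0 CPM in IGF2BP3 KD, and fell by 0.64 on the log2 scale (SE 0.05). *TONSL* (-0.43, SE 0.05), *DNAJC9* (-0.42, SE 0.06), *MCM2* (-0.40, SE 0.04) and *CHAF1A*, the large subunit of the CAF-1 chaperone (-0.38, SE 0.06), were lower too. *NASP* (-0.27), *CABIN1* (-0.26), *CHAF1B* (-0.25), *SSRP1* (-0.22), *HIRA* (-0.17) and *SUPT16H* (-0.15) were the other lower genes. *ASF1A* (0.35, SE 0.08), *UBN1* (0.35, SE 0.04) and *NAP1L4* (0.31, SE 0.04) were higher. *MCM2*, *TONSL*, *DNAJC9*, *NASP*, *CHAF1A*, *SSRP1*, *ASF1A*, *UBN1* and *NAP1L4* overlap an annotated gene on the other strand.

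The replication-independent variants, most of which are made throughout the cell cycle from polyadenylated mRNA, served as the nearest comparison. *H2AX* in this list can also give a stem-loop mRNA. The 11 genes reported here summed to 1876 ± 8.25 CPM in control and 1841 ± 22.7 CPM in IGF2BP3 KD (SD, n = 3), a ratio of 0.98, with no test on the sum and every IGF2BP3 KD library below every control library. Of the 10 that were tested, 2 were higher (9.87% of all tested genes were), *H1-10* (0.22, SE 0.06), which lost its call in 9 of the 16 alternative fits, and *H2AZ1* (0.14, SE 0.03), and 2 were lower (10.6% of all tested genes were), *H2AZ2* (-0.21, SE 0.03) and *MACROH2A1* (-0.15, SE 0.04). *H3-3A* and *H3-3B*, which both encode H3.3, had log2 fold changes of -0.04 (SE 0.02, adjusted p = 0.354 by edgeR) and 0.01 (SE 0.03, adjusted p = 0.897). Here *H1-10*, *H2AZ1*, *MACROH2A1*, *H3-3A* and *H3-3B* overlap an annotated gene on the other strand.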

How the data were processed

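Poly(A) RNA of OE-19 cells was sequenced in 3 control and 3 IGF2BP3 KD libraries as paired reads of 150 bases. Per the labels, the authors processed the reads with fastp, HISAT2 and featureCounts on hg38, and the deposited values are counts per gene without normalization. Tool versions, the annotation release, and the strand and multi-mapping settings are not given in the sources used here. Of 60612 rows, 132 repeats of 44 identifiers were left out.

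The test was edgeR's quasi-likelihood test (edgeR 4.0.16, R 4.3.3) with no block. Libraries were scaled by TMM (factors 0.992 to 1.011), and filterByExpr removed low genes at its count setting of 10 and its total setting of 15. All p-values were adjusted by the Benjamini-Hochberg method over 19778 genes, with a threshold of 0.05. The square root of the common dispersion was 0.148. CPM are TMM-scaled, with the SD over 3 libraries. The SE of a log2 fold change is its absolute value divided by the square root of the F statistic of the quasi-likelihood test. Positions, exons and overlaps come from GENCODE v44, which holds 60461 of the 60480 identifiers, and stem-loops were searched in the hg38 genome behind each stop codon.

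The members and lists were chosen with earlier results of these data known. Every member is accounted for, and those with a mean of at least 1 CPM or called are named. From each other list, called genes at that mean are named, up to 10 by size of change with further called genes by value only, and *SLBP*, *NPAT*, *H2AZ1*, *H3-3A* and *H3-3B* whatever their result. The alternatives were DESeq2 1.42.0, RLE scaling, no filter, at least 10 counts in every library, protein-coding genes only, a replicate block, GC or exon length offsets (lowess span 0.3) with and without the block, and each library left out. Sums over genes were not tested. A gene of the replication-independent variants is not reported here, and their counts and sums leave it out. An exact permutation test of 3 against 3 libraries cannot go below p = 0.1.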

Additional observations from a re-analysis of the deposited data

How the results depend on the processing

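The 16 alternative fits gave 448 values for the 28 named histone genes: 416 kept direction and side of the threshold, 16 fell short of it, 10 newly passed it and 6 changed sign. *H2AC6*, *H2BC7*, *H2BC21*, *H2AC13* and *H3C10* passed in every fit. The count of lower histone genes (2) was 0 without the low-count filter, where *H3C14* had an adjusted p of 0.0519 and *H3C15* 0.059, and ran from 0 to 2 when 1 library was left out, with 0 without control replicate 2 or 3 or IGF2BP3 KD replicate 1 or 2. The cause was not tested. The count of higher histone genes ran from 6 to 8 in those fits, and between 7 and 9 in the others. The count of lower replication-independent variants (2) ran from 1 to 2 when 1 library was left out. The count of higher variants (2) was 1 without the low-count filter, with GC offsets and with exon length offsets, each of the offsets also with the block, and ran from 1 to 2 when 1 library was left out, with 1 without control replicate 1 or 2 or IGF2BP3 KD replicate 2 or 3, and *H1-10* was the gene lost in each of these fits. *H2BC6*, near 0, changed sign to -0.0456 with the replicate block, -0.0080 with exon length offsets, -0.0427 with GC offsets and block, and -0.0726 with exon length offsets and block, and ran from -0.349 to 0.246 when 1 library was left out, with values below 0 without control replicate 2 or IGF2BP3 KD replicate 2. No pairing by replicate number was detected, with correlations of same-numbered deviations from -0.0327 to 0.0002. Differently numbered libraries had correlations from -0.0117 to 0.0237. A weak pairing could be missed in this way. With the replicate block 8 histone genes were higher and 2 lower, against 7 and 2 without it. Scaling and offsets moved the median over all genes by at most 0.0127. Depth limits the 37 genes under 1 CPM most, and reads that fit several copies cannot be split.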
